A study of Mus musculus with 36 samples.

Results

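Extracellular vesicles (EVs) and the neural stem cells (NSCs) that secreted them were compared through 5 loci that took unusually large shares of the counts outside the mitochondrial genome: Cdk8, LOC118568312, AY036118, Gm36876 and Lars2. They were named by an earlier look at these same count tables, by their share of all counts in the EV or the cell libraries, and they are 5 of 40205 features in the table, of which 31069 had at least 1 count. All 5 were counted in all 36 libraries and passed the filter on low counts in every comparison. The values that chose them were the shares in EVs and in cells, so the shares and the EV-to-cell ratios are given below as a description with no test. Tests were run only on what that choice did not use, namely ethanol dose, fetal sex, and how the shares moved together from culture to culture.

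The cells were mouse NSCs from the dorsal telencephalon at gestational day 12.5, from mice labelled C57BL/6J with genotype WT that the study's methods name as C57BL/6J (Ai14), a Cre reporter line, and they were grown as neurospheres and kept apart by fetal sex. Cultures came from 3 pregnancies, numbered sets 3, 4 and 5 in the labels, and the fetuses of each were split into a female and a male culture, 6 in all. Each culture received control medium (0 mg/dL) or medium with 120 or 320 mg/dL ethanol until day 5, and from every culture and dose the EVs and the matched cells were sequenced, which gave 18 EV and 18 cell libraries in 12 groups of 3. Fetuses of a sex were pooled within a pregnancy, each sample pooled 4 flasks, and the cells had been passaged, so a culture stands for a pooled passaged line and not for an animal. The EV libraries held 0.959 to 5.51 M counts (M, 1000000 counts) (median 3.83) and the cell libraries 26.6 to 55.3 M (median 37.8). The smallest count of any of the 5 loci was 5008 in an EV library and 33091 in a cell library, for which counting alone gives an error of 1.41% and 0.550%, small beside the spread between libraries. A list of 8 NSC markers summed to 3136 to 5993 CPM (counts per 1000000) in cells and 276 to 1172 in EVs, neuronal markers to at most 194 in cells and 85.3 in EVs, and microglial, endothelial, erythroid and fibroblast lists to at most 12.5 in any library. Sox2, one of the NSC markers, was at 0 counts in all libraries, whereas Sox2ot, the non-coding gene around it, held 20310 counts in all.

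Ribosomal RNA (rRNA) makes up most of the RNA of a cell. The nucleolus transcribes it as a long precursor by RNA polymerase I, and processing cuts out the 18S, 5.8S and 28S molecules. Libraries made without poly(A) selection therefore begin with a depletion step. Cdk8 encodes a kinase that, with cyclin C, Med12 and Med13, forms the kinase module of the Mediator complex, which relays signals from transcription factors to RNA polymerase II. Lars2 encodes the mitochondrial leucyl-tRNA synthetase, which charges mitochondrial tRNA with leucine. Gm36876 is annotated as a long non-coding RNA. LOC118568312 and AY036118 carry no named function in the tables used here.

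The positions of the loci were read from GRCm39, the build of the counts. Cdk8 lies at chr5:146167823-146241320, Gm36876 at chr11:108862813-108925550 and Lars2 at chr9:123195952-123291731, all on the plus strand. AY036118 was placed through its 300-base RefSeq promoter sequence, which matched over its whole length at chr17:40209227-40209526 on the minus strand. The 18S gene Rn18s-rs5 lies close by on the plus strand at chr17:40157244-40159092 and is 1849 bases long. In RefSeq (GRCm38.p6) AY036118 spans 50274 bases and overlaps the last 91 bases of Rn18s-rs5. LOC118568312 was in none of the reference tables, so its position and sequence are not analysed here. The 91 bases are printed because they are the only annotated rRNA letters found within any of the placed loci, from chr17:40159002-40159092:
Rn18s-rs5, last 91 bases: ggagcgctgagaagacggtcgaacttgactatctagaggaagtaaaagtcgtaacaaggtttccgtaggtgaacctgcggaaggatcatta

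Outside that overlap, none of the 356 rRNA genes annotated in GRCm39 matched the Cdk8, Gm36876 or Lars2 locus or the remaining span of AY036118 over at least 50 bases at 90% identity or more. With a minimum of 95% identity or of 100 bases there was again no match. A 28S sequence was not among the annotated genes, so whether these loci hold 28S-like stretches was not tested. Of the 4 placed loci, only AY036118 overlapped an annotated rRNA gene. Without a 28S sequence this search could not decide whether the others are linked to rRNA. The 5 are called top-count loci here.

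A gene with a real 18S stretch served as a comparison. The intron of Gnb1l holds the first 139 bases of 18S at 100% identity, at chr16:18351942-18352080, and Gnb1l took 0.173% of EV counts and 0.132% of cell counts. The stretch is shown in the direction of 18S:
Gnb1l intron: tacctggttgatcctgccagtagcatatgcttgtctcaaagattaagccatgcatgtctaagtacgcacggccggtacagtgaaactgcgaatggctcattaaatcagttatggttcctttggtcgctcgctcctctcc
Only 2 other counted genes had an 18S match of that kind, Gm40816 over 58 bases and Tor1aip2 over 67 bases. Across the 18 EV libraries the Gnb1l share had a Spearman rho of 0.728 with AY036118 and 0.732 with Lars2, and of -0.507 with LOC118568312. In cells its rho with the 5 loci was 0.519 to 0.680. Tor1aip2 ran the other way in cells, with a rho of -0.728 to -0.676 with the 5 loci, and in EVs it had -0.631 with Cdk8, -0.738 with LOC118568312, and between -0.0114 and 0.191 with the other loci. These are descriptions over libraries that share cultures and totals, and they carry no p.

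Sequence shared with other counted genes was looked for among the 95 placed genes whose shares followed a locus most closely. Of 5672 shared stretches of at least 50 bases, 3 were kept after repeats and those at more than 50 places in the genome were dropped. Of these, 2 are printed because they join a top-count locus to a gene that moved with it.

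These 2 stretches join the untranslated end of Lars2 to Gphn and to Gm15564. The Lars2 stretch at chr9:123290857-123291100 matches an intron of Gphn, which encodes the synaptic scaffold gephyrin, at chr12:78397704-78397947 (244 bases, 97.5% identity, 16 places), and a window of 30 identical bases is shown:
Lars2, chr9:123290865-123290894: cctaaggcgagctcagggaggacagaaacc
Gphn, chr12:78397712-78397741: cctaaggcgagctcagggaggacagaaacc
The stretch at chr9:123291088-123291254 matches an exon of Gm15564 on the minus strand at chr16:35802025-35802191 (167 bases, 97.6% identity, 15 places), again with a window of 30 identical bases:
Lars2, chr9:123291088-123291117: cggctcttcctatcattgtgaagcagaatt
Gm15564, chr16:35802162-35802191: cggctcttcctatcattgtgaagcagaatt
Genes entered this comparison by a high rho with a locus, so their rho is no sign that the shared letters matter. In cells the rho with Lars2 was 0.969 for Gphn and 0.990 for Gm15564, and in EVs it was 0.862 and 0.955. Not every gene with the letters moved this way. Kpna1, an importin gene whose intron spans the same place as Gm15564, had a rho of -0.546 in cells and -0.0299 in EVs. Cd44, with 87 matching bases in an intron, had -0.633 in cells but 0.839 in EVs. The same end of Lars2 also matched the first 140 bases of an unplaced scaffold at 99.3% identity. The rRNA search above found no match in Lars2, but the annotated genes it used did not include every rRNA. That search therefore cannot decide whether these letters are rRNA, and what they belong to was not tested.

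The 5 loci together took 15.5 to 57.1% of all counts in EV libraries (median 28.8) and 1.62 to 22.9% in cell libraries (median 7.35). In EVs Cdk8 led with a share of 11.2% ± 3.41 (SD, n = 18), and its lowest, median and highest libraries were at 5.92, 10.7 and 18.7%. LOC118568312 followed with 7.52% ± 4.33 (2.68, 6.26 and 16.9%). Gm36876 took 6.42% ± 4.44 (3.67, 5.16 and 23.1%). These 3 loci were at ranks 1, 2 and 3 of the non-mitochondrial genes in EVs. AY036118 took 2.45% ± 2.36 of EV counts (0.997, 1.63 and 10.7%) and Lars2 0.726% ± 0.990 (0.166, 0.409 and 4.42%), so for both a single library held the top of the range. Cdk8 was the largest of the 5 in 13 of the 18 EV libraries, LOC118568312 in 4 and Gm36876 in 1. The shares count reads and are not divided by length, so their order is one of counts and not of transcripts.

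In cells the order was different. AY036118 came first with 2.76% ± 2.01 (SD, n = 18, lowest 0.509, median 2.21, highest 6.27%), closely followed by Gm36876 with 2.71% ± 1.59 (0.427, 2.45 and 5.40%), and the 2 ranges overlapped nearly completely. Cdk8 took 1.71% ± 1.76 (0.300, 1.20 and 8.26%) and LOC118568312 1.16% ± 0.653 (0.315, 0.974 and 2.67%). Lars2 took 0.660% ± 0.447 (0.0707, 0.551 and 1.43%) and was the smallest of the 5 in all 36 libraries. Gm36876 was the largest in 12 of 18 cell libraries, AY036118 in 5 and Cdk8 in 1.

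**Figure D1:**
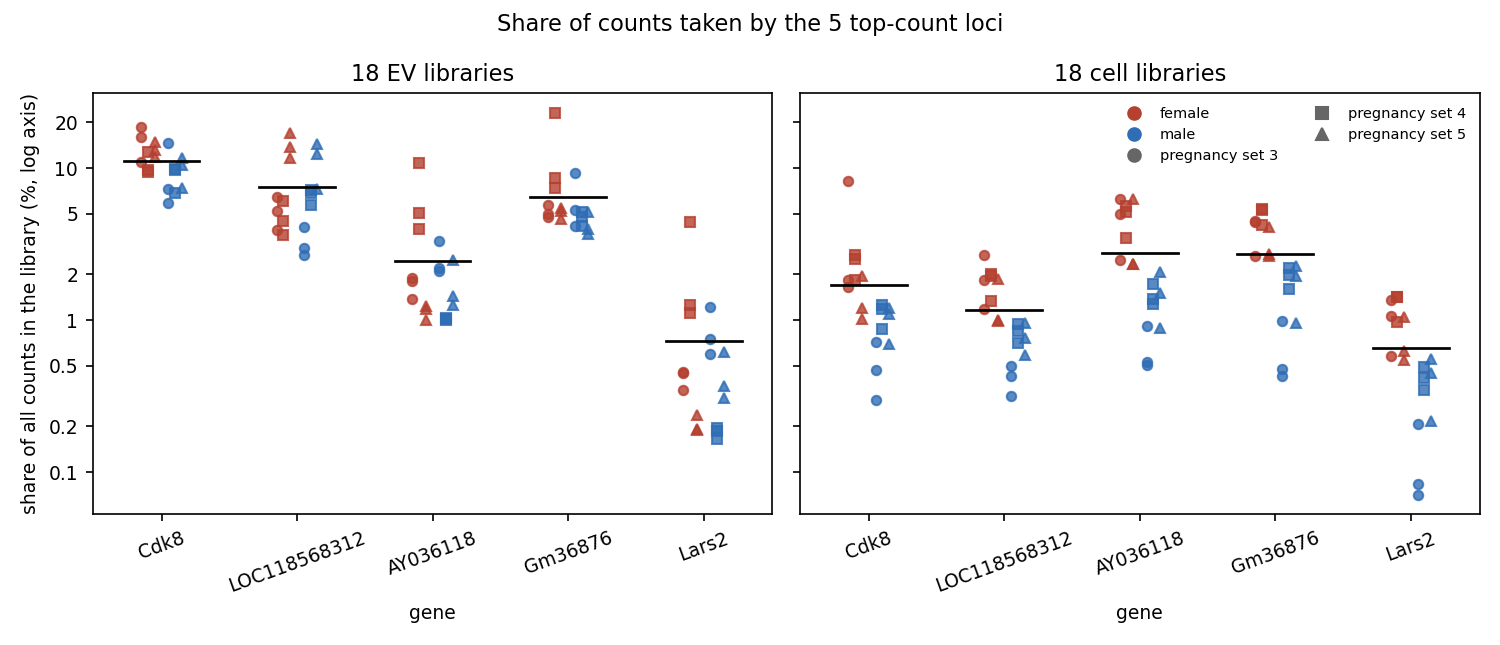
Share of all counts in the library (percent, log axis) for the 5 top-count loci, with 18 EV libraries on the left and 18 cell libraries on the right. Each point is a library, coloured by fetal sex with the symbol for the pregnancy, and the black line is the mean. In EVs Cdk8 has the highest mean (11.2%) and in cells AY036118 (2.76%), and in cells the female points lie mostly above the male points.

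Other genes lay between and just below them. In EVs the predicted gene Gm39850 took 4.72% (rank 4) and Gm51464 2.90% (rank 5), above AY036118 at rank 6, and Htt, the huntingtin gene, was next at 1.51%, while Lars2 ranked 12. In cells Malat1, a nuclear long non-coding RNA, took 1.36% and Rn7sk, the RNA of the 7SK particle, took 1.31%, both above LOC118568312 at rank 6 and Lars2 at rank 7, and Rpph1, the RNA of ribonuclease P, followed at 0.391%. The list is therefore not strictly the top 5 of either location. The mitochondrial rRNA genes were counted apart: mt-Rnr2 took 9.05% of EV counts and 24.6% of cell counts, and mt-Rnr1 took 2.24 and 2.94%. Among the nuclear rRNA genes, Rn5s had 0 counts in all libraries, and 51 n-R5s genes held 424 counts over all EV libraries and 1622 over all cell libraries. The features Rn45s, Rn18s-rs5, Rn18s, Rn28s1, Gm42418 and Gm26917 have no entry among the counted features and are not analysed here.

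In the 18 pairs of EVs and cells from the same culture and dose, shares of all counts in EVs were always above those in cells for some loci. For the other loci they were mostly below. The EV share over the cell share had a median of 8.57 for Cdk8 (1.95 to 48.5), and it was above 1 in 18 of 18 pairs. For LOC118568312 the median was 7.65 (1.86 to 18.8, 18 of 18 pairs) and for Gm36876 2.26 (1.06 to 21.8, 18 of 18). With counts outside the mitochondrial genes as the total, Gm36876 was above 1 in 17 of 18 pairs (lowest 0.943). AY036118 had a median of 0.756 (0.197 to 6.49) and Lars2 of 0.577 (0.225 to 17.2), and for each the EV share was higher in 5 of 18 pairs. Of all genes tested, 84.5% were called different between EVs and cells in edgeR, and since the loci were chosen on this contrast nothing is read from it for them. The median ratio in female and male pairs was 6.72 and 10.1 for Cdk8, 3.31 and 8.40 for LOC118568312, 0.505 and 0.960 for AY036118, 1.64 and 2.63 for Gm36876, and 0.420 and 0.821 for Lars2, lower in females each time. For mt-Rnr2 the median was 0.371, and it was below 1 in every pair. In bulk samples like these a larger share can come from more of one RNA or from less of all others, and the 2 cannot be told apart.

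**Figure D2:**
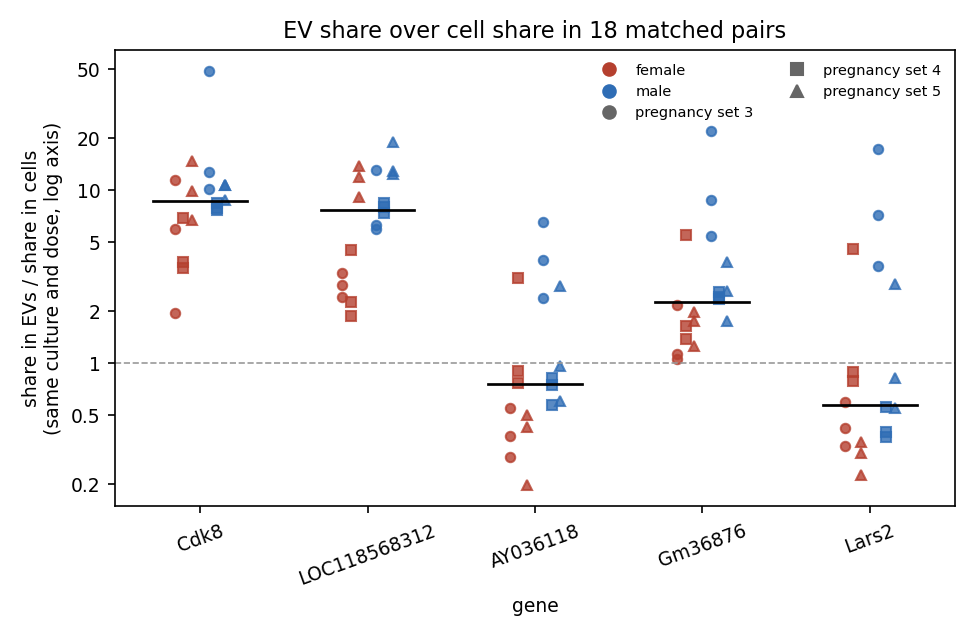
Share in EVs divided by share in cells of the same culture and dose (log axis) for the 5 loci, 18 pairs each, coloured by fetal sex with the symbol for the pregnancy. The line is the median and the dashed line marks equal shares. Cdk8, LOC118568312 and Gm36876 are above 1 in all pairs, and AY036118 and Lars2 in 5 pairs each, of which 3 are from the male culture of set 3.

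Ethanol was the treatment the study set out to compare, and none of the 5 loci passed the test at either dose in EVs or in cells. Together they took 23.1% ± 6.24 of EV counts in controls (SD, n = 6), 29.4% ± 4.83 at 120 mg/dL and 32.4% ± 13.4 at 320 mg/dL. In cells they took 8.17% ± 6.08, 9.27% ± 5.67 and 9.55% ± 7.14. The groups overlapped at each dose in both locations.

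At 320 mg/dL in EVs, Cdk8 libraries ran from 7.22 to 16.1% (median 12.1) against 5.92 to 11.9% (median 8.58) in controls. The share at 320 mg/dL was above that of the same culture's control in 6 of 6 cultures, by a median ratio of 1.36 (1.22 to 1.56). The log2 fold change in edgeR was 0.81 ± 0.529 (SE), with an adjusted p of 0.634. Fold changes and their SE come from the fit on the TMM scale, so they are not the same measure as the share ratios. Over all genes the median log2 fold change was 0.0115 with TMM and -0.235 with library totals. Gm36876 was also higher in 6 of 6 cultures (median ratio 1.23, 1.04 to 2.68), with a log2 fold change of 0.86 ± 0.569 and an adjusted p of 0.642. For LOC118568312 it was 5 of 6 cultures and 0.69 ± 0.518 (adjusted p = 0.705). AY036118 was higher in 3 of 6 and Lars2 in 4 of 6, with log2 fold changes of 0.46 and 0.56 and adjusted p of 0.831 and 0.783. Without the female EV library of set 4 at 320 mg/dL, which stood apart in 3 loci, these 2 became -0.08 and -0.10, and the others 0.48, 0.28 and 0.32 for Cdk8, Gm36876 and LOC118568312. At 120 mg/dL in EVs the log2 fold changes were 0.18 to 0.88, the largest for Cdk8, and the lowest adjusted p was 0.868. Of all 13193 genes tested in EVs, edgeR called 0.00758% at 120 mg/dL and 0.0758% at 320 mg/dL (1 and 10 genes), and 782 and 1427 genes had an unadjusted p under 0.05.

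In cells the 5 loci differed from control by log2 fold changes of 0.26 to 0.47 at 120 mg/dL (adjusted p 1.00 for each) and of 0.29 to 0.76 at 320 mg/dL (adjusted p 0.664 to 0.828). The largest was Cdk8 at 320 mg/dL, 0.76 ± 0.420 (SE), where libraries ran from 0.717 to 8.26% (median 1.18) against 0.469 to 2.53% (median 1.04) in controls and 4 of 6 cultures were higher. Without the female cell library of set 3 at 320 mg/dL, which held the 8.26%, the value was 0.25. edgeR called 0.0% of 18725 genes in cells at 120 and 0.0% at 320 mg/dL, with 477 and 1575 genes at an unadjusted p under 0.05, and DESeq2 called 4 and 103 genes. The dose effect in EVs was also tested against that in cells, where edgeR called 0.00938% of 21333 genes at 120 mg/dL and 0.0% at 320 mg/dL (1399 genes had an unadjusted p under 0.05). None of the 5 loci passed, and their adjusted p was at least 0.971.

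**Figure D3:**
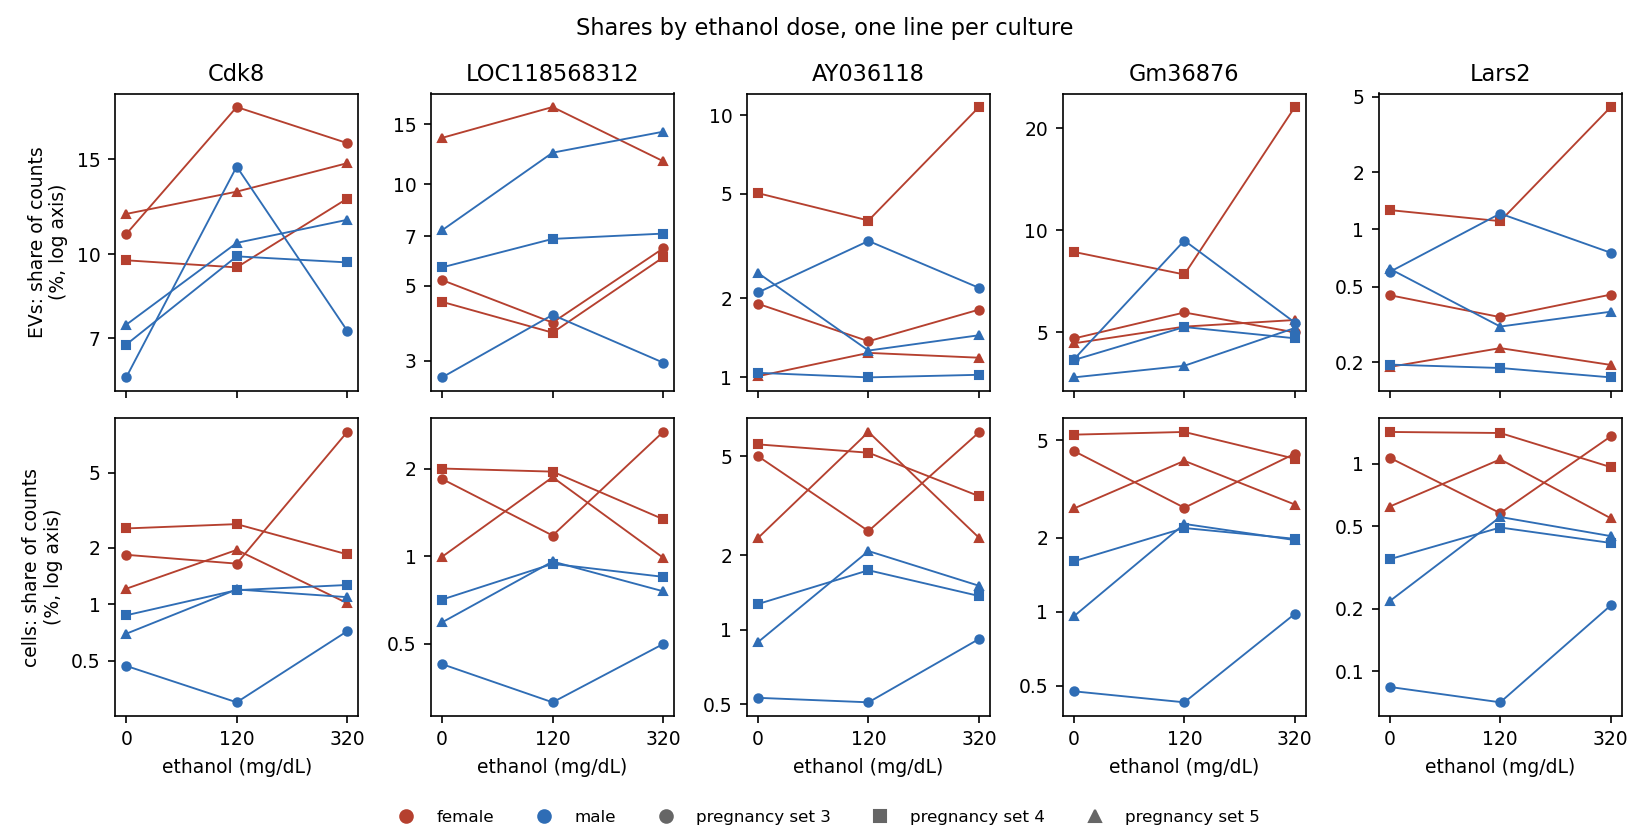
Share of counts (percent, log axis) against ethanol dose (0, 120 and 320 mg/dL, evenly spaced) for the 5 loci, with EVs in the upper and cells in the lower panels. Each line is a culture, coloured by fetal sex with the symbol for the pregnancy, and axes differ between panels. In cells the female lines lie above the male lines of the same pregnancy at nearly every dose, and the female culture of set 4 rises to 10.7% for AY036118, 23.1% for Gm36876 and 4.42% for Lars2 in EVs at 320 mg/dL.

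Fetal sex was the other contrast, and in cells all 5 loci were higher in female than in male cultures by the test across libraries. AY036118 had 2.34, 5.01 and 6.27% of counts in its lowest, median and highest female cell library and 0.509, 1.27 and 2.07% in male ones, so the sexes did not overlap. The log2 fold change of 2.11 ± 0.359 (SE) had an adjusted p of 0.00128. Lars2 ran from 0.547 to 1.43% in females (median 1.05) and from 0.0707 to 0.555% in males (median 0.347), with an overlap of the lowest female and the highest male library, and a log2 fold change of 2.03 ± 0.404 (adjusted p = 0.00380).

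Gm36876 ran from 2.63 to 5.40% in females (median 4.20) and from 0.427 to 2.28% in males (median 1.60), with no overlap, and it differed by 1.79 ± 0.327 on the log2 scale (adjusted p = 0.00226). Cdk8 ran from 1.01 to 8.26% (median 1.84) against 0.300 to 1.26% (median 0.872), and the ranges overlapped. Its log2 fold change of 1.66 ± 0.457 had an adjusted p of 0.0231. LOC118568312 ran from 0.989 to 2.67% (median 1.84) against 0.315 to 0.959% (median 0.710) without overlap, with 1.49 ± 0.309 (adjusted p = 0.00483). Female libraries were higher than the male library of the same pregnancy and dose in 9 of 9 pairs for 4 of the loci and in 8 of 9 for Cdk8. Fewer cells of a type and less RNA per cell cannot be told apart in such pools. In edgeR 16.5% of 18725 genes were called between the sexes in cells, 6.79% as higher in females.

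The size of the difference varied with the pregnancy. For AY036118 the female mean was 7.02 times the male mean in set 3, 3.25 times in set 4 and 2.45 times in set 5, and for Cdk8 it was 7.90, 2.12 and 1.40 times. For Lars2 it was 8.30, 3.03 and 1.82 times. Set 3 therefore had the widest gap for each of these loci, and every ratio was above 1. The share of all 5 together was 7.63 to 22.9% in female cells and 1.62 to 7.06% in male cells.

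The 3 libraries of a culture come from the same cells, so the cultures are the firmer unit. With counts summed over doses, which leaves 3 female and 3 male cultures paired by pregnancy, the log2 fold changes were 1.38 to 1.97, no locus passed (adjusted p 0.455 to 0.628), and edgeR called 7 genes in all. An exact two-sided permutation test of the mean log2 share of 3 female against 3 male cultures gave p = 0.1 for each locus, the smallest value that it can give. This test left the pairing by pregnancy out. Cdk8 also missed the threshold in DESeq2 (adjusted p = 0.166) and without set 4 (adjusted p = 0.0697). Without the female cell library of set 3 at 320 mg/dL its log2 fold change was 1.15 (adjusted p = 0.0138).

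In EVs no locus passed the test for sex. In the same fit, which takes the 3 doses of a culture as separate libraries, 28.3% of 13193 genes did, but with counts summed over doses edgeR called 0 genes. Cdk8 libraries ran from 9.46 to 18.7% in females (median 12.7) and from 5.92 to 14.5% in males (median 9.67), and the log2 fold change was 0.65 ± 0.579 (adjusted p = 0.422). It was 0.65 for Gm36876, 0.48 for AY036118, 0.36 for LOC118568312 and 0.23 for Lars2, with adjusted p of 0.471, 0.656, 0.654 and 0.873. The pregnancies disagreed for AY036118, whose female mean was 6.46 times the male mean in set 4 but 0.669 and 0.659 times in sets 3 and 5, and for Lars2, with 12.5 times in set 4 but 0.487 and 0.477 times in the others. Without set 4 their log2 fold changes were -0.55 and -1.01 (adjusted p = 0.351 and 0.0527). DESeq2 called Cdk8 (adjusted p = 0.0321) and no other locus. Female EV libraries were above the male library of the same pregnancy and dose in 8 of 9 pairs for Cdk8, as in cells. It was 7 of 9 for Gm36876, 4 for LOC118568312, and 3 each for AY036118 and Lars2. The exact permutation test over cultures gave p = 0.1 for Cdk8 and 0.4 to 0.9 for the other loci.

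The sex difference in EVs was smaller than in cells for each locus, but the test of that difference, chosen after the shares by sex were seen, did not pass. The log2 differences were -1.21 for Cdk8, -1.34 for LOC118568312, -1.78 for AY036118, -1.34 for Gm36876 and -1.89 for Lars2, with adjusted p of 0.0844 to 0.188, while 8.98% of 21333 genes were called. Without set 4, AY036118 (-2.83, adjusted p = 0.00900) and Lars2 (-3.24, adjusted p = 0.00626) passed. Scaling by library totals in place of TMM moved the median of all genes by over 0.1 in several comparisons, and with it the split of calls. For sex the share of calls higher in females went from 53.0 to 66.0% in EVs and from 41.2 to 23.5% in cells, and for the difference between them from 41.1 to 89.8% (59.4% with median-of-ratios factors). The 5 loci kept their direction in cells under each scaling.

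The relation of the 5 loci to each other was tested over the 6 culture means of log2 share, with exact permutation of all 720 pairings and adjustment over 30 relations. In cells the loci rose and fell together, and 10 of 10 pairs passed, with Pearson r from 0.948 for Cdk8 and Gm36876 to 0.999 for Gm36876 and Lars2 and adjusted p of 0.00694 to 0.0104 (exact permutation, n = 6). Spearman rho was 0.943 or 1.00 with adjusted p of 0.0139 to 0.0417. Without the 2 cultures farthest from the median, r stayed between 0.921 and 0.999. The cultures of the 2 sexes lay at different levels, and within a sex r over 9 libraries was 0.601 to 0.971 in females and 0.946 to 0.997 in males, given as a description.

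In EVs a single pair passed. AY036118 and Lars2 had r = 0.986 and rho = 1.00 over 6 cultures (exact permutation, adjusted p = 0.00694 and 0.0139), and r was 1.000 without the 2 farthest cultures. AY036118 with Gm36876 had r = 0.908 and Gm36876 with Lars2 r = 0.839, each with an adjusted p of 0.0547 by exact permutation. LOC118568312 went the other way against these 3, with r of -0.569, -0.489 and -0.635 (adjusted p 0.226 to 0.432, exact permutation), and Cdk8 had r between -0.151 and 0.302 with the others. Each share is a part of the same total. With counts outside the 5 loci and the mitochondrial genes as the total the same count of pairs passed, 1 in EVs and 10 in cells.

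**Figure D4:**
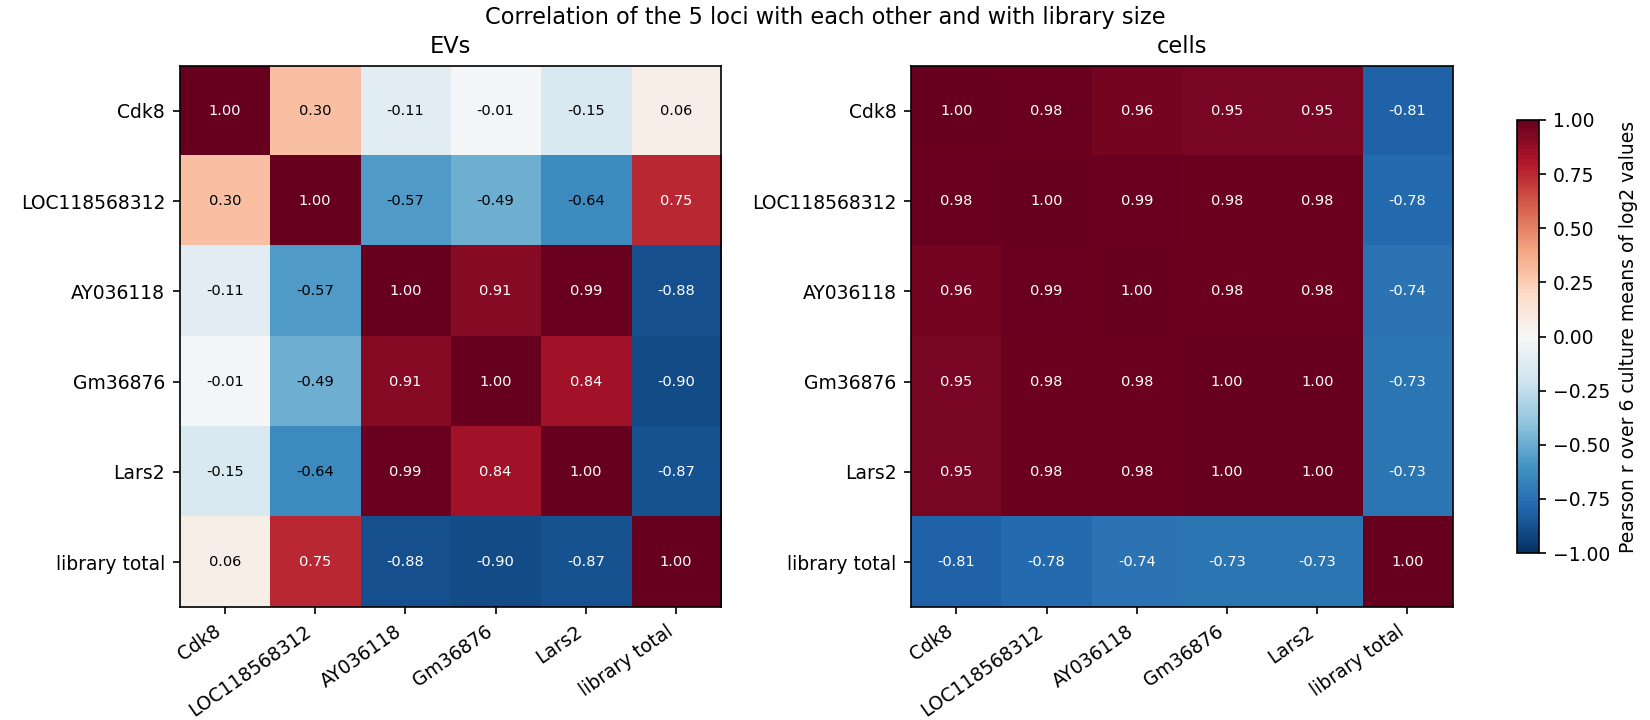
Pearson r over 6 culture means of the log2 share of the 5 loci and of the log2 library total, for EVs on the left and cells on the right, coloured from -1 (blue) to 1 (red). In cells all loci correlate with r of at least 0.948, and in EVs AY036118, Gm36876 and Lars2 have r of 0.839 to 0.986 with each other while LOC118568312 is negative with all 3.

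Ratios between loci show the same by library. AY036118 held 4.01 times the counts of Lars2 in the median EV library (2.43 to 6.14) and 4.00 times in the median cell library (3.29 to 7.20), although Lars2 itself varied 26.7-fold across EV libraries and 20.2-fold across cell libraries. The ratio of Gm36876 to Lars2 was 4.38 in cells (3.24 to 6.04), the steadiest of all 10 ratios with an SD of 0.210 on the log2 scale, but 11.96 in EVs (5.23 to 28.9, SD 0.869). Cdk8 over LOC118568312 was 1.25 in cells and 1.77 in EVs. The SD of log2 share was mostly larger between culture means than within a culture. For Lars2 in EVs it was 1.26 between and 0.557 within, and for LOC118568312 0.797 and 0.350. Cdk8 in EVs went the other way, with 0.327 between and 0.390 within cultures, and Gm36876 in EVs was close, with 0.514 and 0.461. The SD of culture means also holds a part of the spread within cultures.

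**Figure D5:**
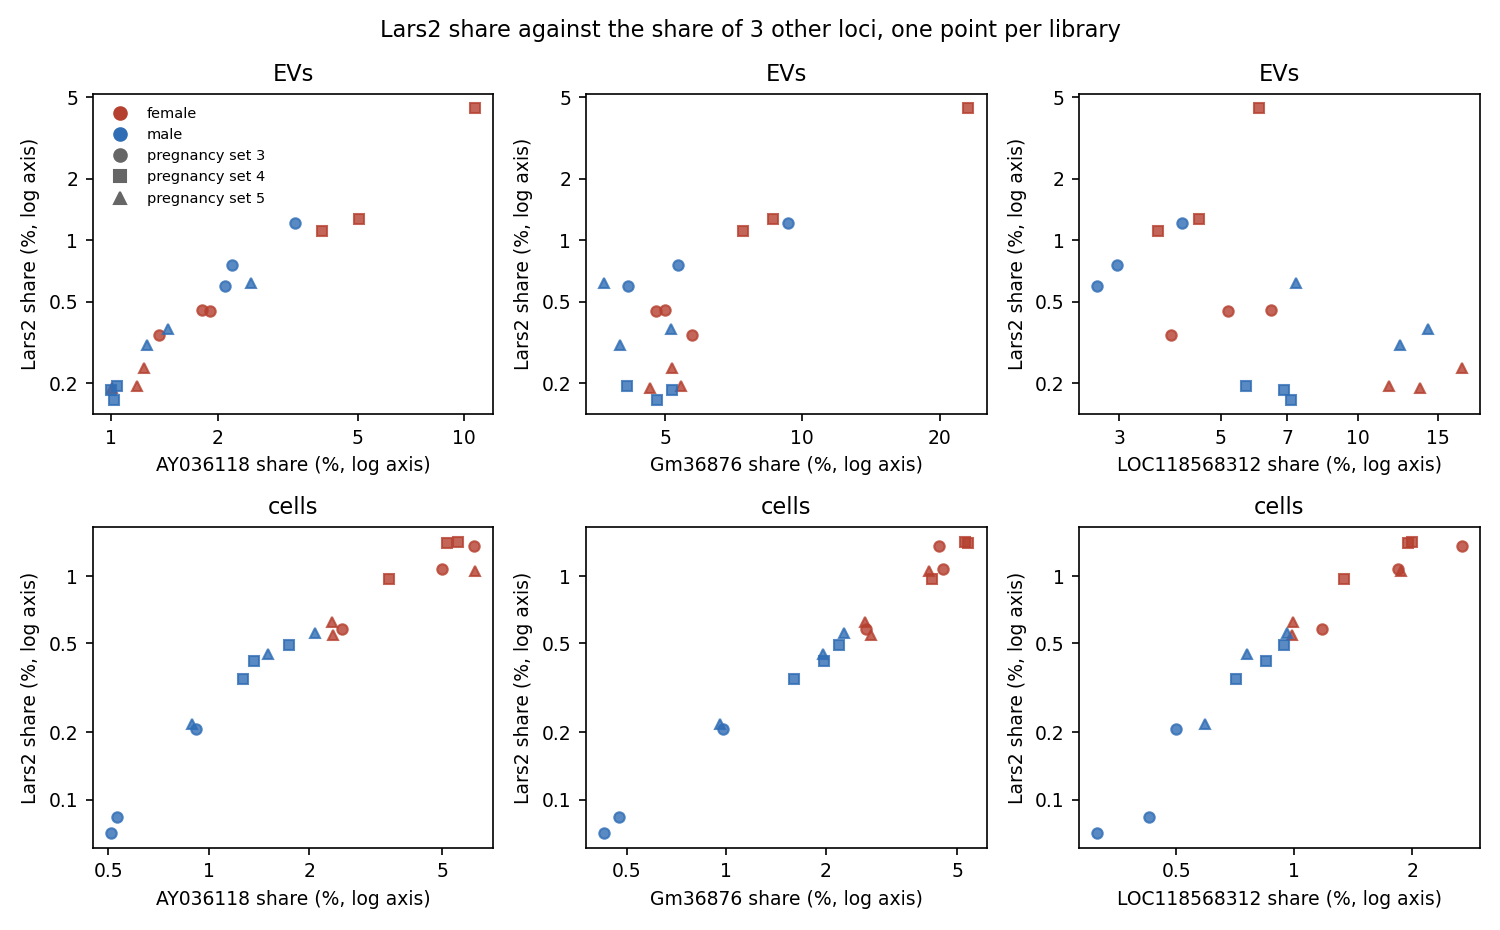
Share of Lars2 against the shares of AY036118, Gm36876 and LOC118568312 (percent, log axes), a point per library, with 18 EV libraries above and 18 cell libraries below, coloured by fetal sex with the symbol for the pregnancy. Lars2 follows AY036118 closely in both, follows Gm36876 more closely in cells than in EVs, and rises with LOC118568312 in cells but not in EVs.

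The share was also set against the library total. Over the 6 EV culture means, Gm36876 fell with the total (r = -0.895, rho = -1, adjusted p = 0.00694 and 0.0139 by exact permutation, and r = -0.918 without the 2 farthest cultures). With counts outside the 5 loci and the mitochondrial genes as the denominator its r was -0.778 (adjusted p = 0.0923, exact permutation), and over the 6 controls alone r was -0.714 (adjusted p = 0.181) and rho -0.886 (adjusted p = 0.0833, exact permutation), so this relation depended on the denominator and on the libraries taken. AY036118 (r = -0.876, adjusted p = 0.0288) and Lars2 (r = -0.873, adjusted p = 0.0446) passed by Pearson but not by Spearman (rho = -0.829, adjusted p = 0.0972, exact permutation), and without the 2 farthest cultures r was -0.162 and -0.129, so these relations rested on those cultures. LOC118568312 had r = 0.751 (adjusted p = 0.138) and Cdk8 r = 0.0587 (adjusted p = 0.954, both exact permutation). In cells r was -0.727 to -0.807 and none of the 5 passed (adjusted p 0.10 to 0.138, exact permutation), and over the 6 controls alone r was -0.141 to -0.282. Sex was not separated from the total here, since male EV libraries had a median of 4.02 M counts and female ones 2.59 M.

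The genes whose shares ran most like each locus were then ranked by Spearman rho over the 18 libraries, among genes with a mean of at least 10 CPM (6455 in EVs and 8907 in cells), without a test. In cells the same few genes recurred. Gm15564, Il31ra, a cytokine receptor subunit gene, and Camk1d, a calcium/calmodulin-dependent kinase gene, were the closest 3 for Lars2 (rho 0.990, 0.992 and 0.981), for LOC118568312 (0.979, 0.973 and 0.977) and for AY036118 (0.959, 0.961 and 0.959). Gm36876 had Gm15564, Il31ra and Gm31015 (0.983, 0.979 and 0.971). Cdk8 had Gphn, D130009I18Rik and Gm39429 (0.955, 0.946 and 0.944). Between 19 and 44 genes reached a rho of 0.8 with a locus in cells, where the median gene had a rho of -0.428 to -0.362.

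In EVs the likeness divided the loci. Il31ra was again closest to AY036118 (0.971) and Lars2 (0.988), followed for AY036118 by Foxe3 and Gm39409 (0.957 and 0.953) and for Lars2 by Csrnp1 and Foxe3 (both 0.955), and 100 and 104 genes reached 0.8. For LOC118568312 the closest were Gm42085 and Rnu12, a small nuclear RNA of the minor spliceosome (both 0.862), and Nphs1 (0.816). For Gm36876 they were Klhl32, Aff2 and Prkg2 (0.882, 0.856 and 0.825). Cdk8 had no gene at 0.8, and its closest were Fam184a, Nanos1 and Nfasc at 0.740.

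The partner genes of Cdk8, the synthetase genes related to Lars2 and the genes that make rRNA were more often lower than higher in EVs against cells. Of all 20260 genes tested, 8656 were called lower and 8469 higher. Of the 6 other genes of the Mediator kinase module, all tested, 5 were lower in EVs than in cells by edgeR and 0 higher (median log2 fold change -0.72, and -0.01 over all genes). The largest differences were in Ccnc, which encodes cyclin C (-2.43 ± 0.102, SE, adjusted p = 2.25e-21), and Med13 (-1.67 ± 0.133, adjusted p = 9.60e-14). These p-values come from a fit that takes the libraries of a culture at each dose as separate. Of 19 aminoacyl-tRNA synthetase genes 16 were tested, 12 were lower and 2 higher (median -0.58), with Yars2 at -3.00 and Iars2 at -2.36. Of 30 genes for RNA polymerase I and rRNA processing 27 were tested, 25 were lower and 1 higher (median -1.33), with Taf1d at -2.98 and Nop56 at -2.45. With median-of-ratios size factors the median of all genes moved to 0.51, the list medians to -0.18, -0.07 and -0.79, and the calls to 3 lower and 1 higher of 6, 7 and 3 of 16, and 22 and 2 of 27. Then 62.1% in place of 49.5% of all calls were higher in EVs. With library totals it was 42.2%. Without set 4, 3 of the 6 kinase module genes were called in place of 5.

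None of the genes of these lists passed the test for ethanol in EVs or cells. For sex in cells, Med13l, Cdk19, the paralog of Cdk8, and Med13 were lower in females in the test across libraries (3 of 6, log2 fold changes -0.70, -0.47 and -0.42), while 1 of 16 synthetase genes was higher (Pars2, 0.60) and 1 of 27 rRNA genes lower (Taf1a, -0.48). In EVs 1 of 6, 2 of 16 and 1 of 27 passed, with Cdk19 (-0.32) and Ttf1 (-0.33) lower in females and Nars2 (0.99) and Fars2 (0.45) higher. Over all genes 16.5% were called in cells and 28.3% in EVs. With counts summed over doses 0 genes of the 3 lists were called in either location, and for the kinase module in cells the count was also 0 without set 4 and without the replicate block, and 1 without set 5. With a set left out the EV counts were 0 for the kinase module, 1 to 5 for the synthetases and 0 to 4 for the rRNA genes, and the last 2 lists in cells gave 0 to 2 and 0 to 7. These lists were chosen with results of these data known.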

How the data were processed

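RNA from EVs and from the matched NSCs was sequenced after ribosomal RNA depletion, with a stranded kit and paired ends. The authors trimmed and deduplicated the reads, mapped them with STAR to mm39 (GRCm39) and counted them with HTSeq. The deposited values are raw counts per gene, in 1 table per library. The strand setting, feature type and treatment of reads with several places are not given in the sources used here. The submitters' processing notes also name Trimmomatic and DESeq2 2.11.40.6.

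Shares are percentages of all counts in a library, with no value of the authors' comparisons used. Comparisons used the quasi-likelihood test of edgeR 4.0.16 (R 4.3.3) with TMM scaling, filterByExpr (minimum count 10, minimum total 15), Benjamini-Hochberg adjustment over all genes tested and a threshold of 0.05. Ethanol was fitted with the culture as a block and sex with the pregnancy set as a block. The pairing comes from the labels, and a dosed library deviated with its culture's control (median r = 0.525 in cells, over 0.1 in 12 of 12 pairs, and 0.143 in EVs, 11 of 12). Female and male libraries of a pregnancy did so less (median r = 0.277 and 0.0708). No 2 libraries were identical. p-values cover the spread among these libraries only. The sex fits had no culture term, so the 3 libraries of a culture counted as separate. EVs against cells was fitted with the culture as a block but no culture by location term. The doses of a culture therefore counted as separate there too. For sex, only the summed counts and the permutation test took the culture as the unit. Likeness was Spearman rho of log2 share. Sequences were compared with BLAST 2.17.0 against GRCm39 with GENCODE vM39, and RefSeq (GRCm38.p6) gave overlaps only. Alternatives were DESeq2 1.42.0, other scalings, no filter, no block, summed doses, and libraries left out. The fits were tested on simulated counts with 200 changed genes. The members, the gene lists and the rule for naming genes were chosen with earlier results of these data known. That rule named the 5 loci, annotated rRNA features, the next 3 genes by share in each location, the 3 closest genes to each locus, and up to 2 genes a list with the largest change past the threshold. Gnb1l, Gm40816, Tor1aip2, Kpna1, Cd44, Sox2 and Sox2ot, and Med13 for sex in cells, were named after their values were seen. 1 shared stretch is not reported here.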

Additional observations from a re-analysis of the deposited data

Results flagged for a closer look

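Of 60 groups of 6 or 9 libraries tested, 12 held a library whose distance from its nearest neighbour was too large a part of the group's range by Dixon's test at 95%, a result that chance gives in about 1 in 20 groups. The 12 came from 4 libraries. The female EV library of set 4 at 320 mg/dL was highest for AY036118 (10.7% of counts, next 5.04%), Gm36876 (23.1%, next 8.63%), Lars2 (4.42%, next 1.27%) and all 5 loci together (57.1%, next 36.6%) among the 9 female EV libraries, and again for AY036118 (10.7%), Gm36876 (23.1%) and Lars2 (4.42%) among the 6 EV libraries at 320 mg/dL. The control EV library of the same culture was highest for AY036118 (5.04%, next 2.50%) and Gm36876 (8.63%, next 4.79%) among the 6 EV controls. The male EV library of set 3 at 120 mg/dL, which had the smallest total of all (0.959 M counts), was highest for Gm36876 among the 9 male EV libraries (9.32%, next 5.33%). In cells the female library of set 3 at 320 mg/dL, the smallest cell library with 26.6 M counts, was highest for Cdk8 among the 9 female libraries (8.26%, next 2.67%) and among the 6 at 320 mg/dL (8.26%, next 1.84%). The part of library size in these values was not tested.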

How the results depend on the processing

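The 5 loci made no pass in the ethanol comparisons under any alternative run. Without set 4 (and without its female EV library at 320 mg/dL, chosen after seeing the data) the log2 fold change at 320 mg/dL in EVs turned to -0.11 (-0.083) for AY036118 and -0.080 (-0.095) for Lars2, and that for sex in EVs to -0.55 for AY036118 and -1.01 (-0.047) for Lars2. With any 1 set left out these values ran from -0.11 to 0.82, -0.080 to 1.06, -0.55 to 1.33 and -1.01 to 1.49. The loci called for sex were 5 in cells but 0 with summed doses and the replicate block, and 0 in EVs but 1 in DESeq2. For sex in EVs against cells 0 to 2 were called with a set left out. Leaving out the replicate block changed no call of a locus.

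Counts over all genes moved more. For 120 mg/dL in EVs (1 gene) they were 5 with library totals, 157 without the filter, 12 in DESeq2, 0 with the 2 doses alone and 0 to 6 with a set left out. For 320 mg/dL in EVs (10) they were 6 with TMM apart from the loci and mitochondrial rRNAs, 207 without the filter, 261 in DESeq2, 0 without the replicate block, 0 with the 2 doses alone and 0 to 62 with a set left out. In cells (0 and 0) DESeq2 gave 4 and 103, and leaving out a set 0 to 2 and 0 to 1. For sex in EVs (3736) they were 1655 with library totals, 1475 without the replicate block, 0 with summed doses and 309 to 3946 with a set left out, and in cells (3088) 1029 without the replicate block, 7 with summed doses and 1125 to 3824. The dose effects against cells (2 and 0) gave 1 at 120 mg/dL without the replicate block, 6 and 7 without the filter, 1 with library totals and 3 with median-of-ratios factors at 320 mg/dL, and 0 to 5 and 0 to 2 with a set left out. Sex in EVs against cells (1916) gave 934 with library totals and 32 to 3613 with a set left out. The kinase module genes called in EVs against cells (5) were 3 to 5 with a set left out. The cause was not tested.

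As percent of counts outside the 5 loci and mitochondrial genes, the mean shares in EVs were 19.6 for Cdk8, 13.4 for LOC118568312 and 11.8 for Gm36876, and in cells 1.97 for LOC118568312, 4.59 for Gm36876 and 1.13 for Lars2, larger because the denominator is smaller. Counting error did not limit these loci, while the part of library size in their shares was not tested beyond the relations above. The 3 pregnancies did set a limit: at 3 against 3 cultures an exact unpaired test cannot go below 0.1.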

Other observations

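How genes nested in other genes were counted bears on any locus with overlaps. Among protein-coding genes, 6.81% of 5863 without any overlap had 0 counts in all 36 libraries, against 36.6% of 1035 that lie inside a gene of the opposite strand and 50.3% of 372 inside a gene of the same strand. For long non-coding RNA genes the shares were 3.20% of 1940, 70.6% of 1846 and 49.1% of 173. With a partial overlap they were 1.13% of 11961 protein-coding and 6.43% of 4119 long non-coding genes. Counts of AY036118, which overlaps an 18S gene on the other strand, were read with the strand setting unknown. That 18S gene has no entry among the counted features, and how much of the AY036118 share came from this overlap was not tested.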
